A study of Capra hircus with 3 samples.

Results

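Mitochondrial fuel use in the goat liver was followed through 5 genes: HADHA, HADHB, CPT1A, PDK4 and FGF21. They were the rows of the count matrices that carry these symbols, 5 of 6 names looked for, out of 27271 genes measured. ACADM, a medium-chain acyl-CoA dehydrogenase, was not analysed here. In the goat RefSeq annotation HADHA and HADHB lie next to each other, and none of the 5 overlaps another gene.

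Fatty acids enter mitochondria as acylcarnitines and are shortened there by repeated rounds of beta-oxidation, whose product feeds the citric acid cycle or, in liver, ketone body synthesis. CPT1A makes the acylcarnitine at the outer mitochondrial membrane and is the step that malonyl-CoA inhibits. HADHA and HADHB are the alpha and beta subunits of the mitochondrial trifunctional protein, which carries out the last steps of each round on long chains. PDK4 phosphorylates and inactivates the pyruvate dehydrogenase complex, which sends pyruvate away from oxidation when fatty acids are burnt. FGF21 is a hormone made in liver that acts through FGF receptors together with the co-receptor KLB, and in rodents its liver transcript is induced by fasting and by amino acid or endoplasmic reticulum stress.

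The samples were livers of female goats aged 3 to 4 years. The NASH-T group was fed the HRDS diet and is labelled as tolerant of non-alcoholic steatohepatitis, the NASH group was fed the same HRDS diet and had steatohepatitis, and the Con group was healthy and fed the LRDS diet. Livers were dissociated with 0.25% trypsin for 40 min, passed through a 40 µm strainer, and the 5 livers of a group were pooled before sequencing. Each group is therefore 1 library without a replicate, and group, pool and handling cannot be told apart. No test between groups was possible. All intervals below are 95% intervals of counting error only, and they say nothing about variation between goats.

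Filtering left 8914 cells of NASH-T, 8389 of NASH and 7200 of Con, whose median depth was 2127.5, 2472 and 2392.5 UMIs. Between 35 and 41 barcodes of each library also occurred in another library. Hepatocyte-like cells, 5 of 25 clusters, numbered 3119 in NASH-T, 4061 in NASH and 2862 in Con, with a median of 4048, 3866 and 4208 UMIs. Their 11 hepatocyte markers summed to 22144 CPM (UMIs of a gene per 1e6 UMIs of its cell class) in NASH-T, 19202 CPM in NASH and 17391 CPM in Con, and none was at 0. The 13 macrophage markers summed to 1368 CPM in hepatocyte-like cells of NASH-T, against 866 CPM in NASH and 897 CPM in Con, and none was at 0 in any library. In the macrophage-like cells themselves the level of PDK4 was 15.2, 12.1 and 23.8 CPM, below its level in hepatocyte-like cells of every library. Nearly all cells of cluster 4, which CYP7A1 leads, came from NASH (54, 1746 and 11 cells), so whole-class values of NASH weigh hepatocytes that the other libraries hardly have.

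The trifunctional protein subunits HADHA and HADHB and the kinase PDK4 were higher in NASH-T hepatocyte-like cells than in Con, and FGF21 was higher in NASH than in Con. A gene was called higher or lower where the ratio of CPM between libraries was at least 1.5 either way, its interval excluded 1, and both libraries together gave at least 20 UMIs. By this rule 3 of the 5 genes were called higher in NASH-T against Con and 0 lower, beside 4.63% of all measured genes called higher (609) and 8.04% called lower (1058). In NASH against Con 1 of the 5 was called higher and 0 lower, beside 5.25% (698) and 11.4% (1515) of all genes. In NASH-T against NASH 2 were called higher and 1 lower, beside 8.09% and 4.9% of all genes. The median gene stood at a log2 ratio of -0.10 in NASH-T against Con and -0.12 in NASH against Con, so that each log2 ratio against Con would be larger by about that much if read relative to it. With median-of-ratios size factors in place of CPM, 840 genes were called higher and 705 lower in NASH-T against Con, and 912 higher and 1076 lower in NASH against Con, and each of the 5 genes had the same side of the threshold.

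**Figure D1:**
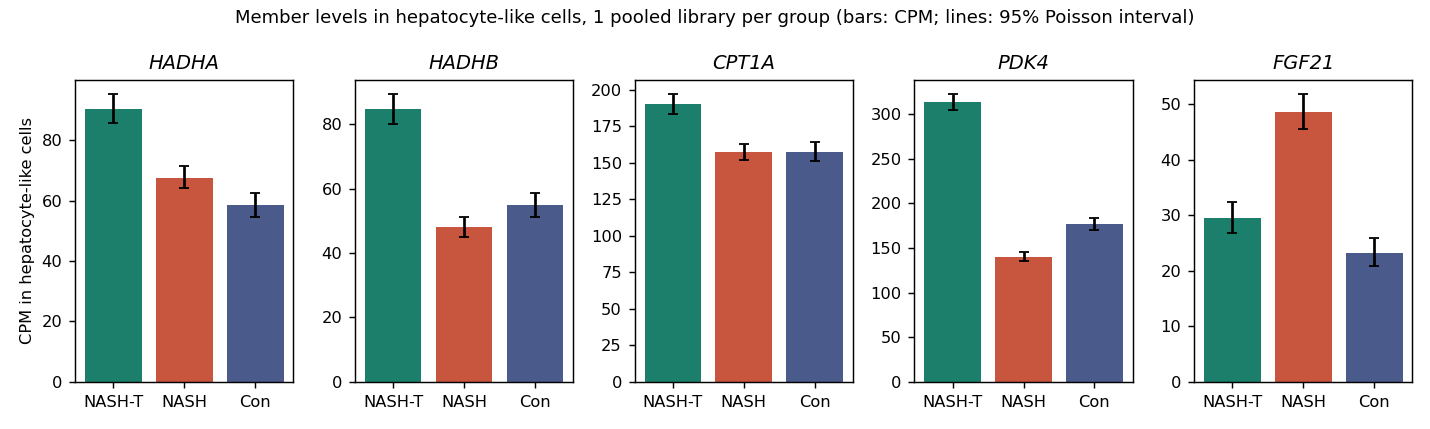
Levels of the 5 genes in hepatocyte-like cells. Bars give CPM in the NASH-T, NASH and Con libraries and lines the exact 95% Poisson interval of each count; HADHA, HADHB, CPT1A and PDK4 have their tallest bar in NASH-T (PDK4 at 313 CPM) and FGF21 in NASH (48.6 CPM).

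HADHA stood at 90.3 CPM in NASH-T (interval 85.6 to 95.2), 67.6 CPM in NASH (64.0 to 71.3) and 58.5 CPM in Con (54.6 to 62.6). HADHB stood at 84.5 CPM in NASH-T (80.0 to 89.3), 48.0 CPM in NASH (45.0 to 51.1) and 54.8 CPM in Con (51.0 to 58.7). For both subunits the NASH-T library lay above the other two with intervals that did not touch, while NASH and Con lay closer together and in opposite order for the 2 subunits.

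Against Con, the NASH-T level was 1.54-fold for HADHA (1.42 to 1.69) and 1.54-fold for HADHB (1.41 to 1.69). The whole-class ratios of the 2 subunits were thus alike within counting error. They were also read by zone, in groups ranked by marker genes. Near the central vein the ratio was 1.49 for HADHA (1.26 to 1.77) and 1.65 for HADHB (1.38 to 1.97). In the middle it was 1.58 (1.35 to 1.84) and 1.78 (1.52 to 2.10), and near the portal vein 1.56 (1.36 to 1.79) and 1.33 (1.16 to 1.53). The intervals of the 2 subunits overlapped in each zone. In NASH against Con the ratio was 1.16 for HADHA (1.06 to 1.26) and 0.875 for HADHB (0.796 to 0.963), neither of them called. With the size factors that HADHB ratio was 0.947. In NASH-T against NASH, HADHB was called higher at 1.76 (1.62 to 1.92), and HADHA had a ratio of 1.34 (1.24 to 1.44).

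CPT1A, the entry step, varied least. Its level was 190 CPM in NASH-T (183 to 197), 157 CPM in NASH (152 to 163) and 158 CPM in Con (151 to 164). NASH and Con were alike within counting error, with a ratio of 0.998 (0.945 to 1.05). The NASH-T level was 1.21-fold that of Con (1.14 to 1.28) and 1.21-fold that of NASH (1.15 to 1.27), differences beyond counting error that did not reach the 1.5-fold needed for a call.

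PDK4 differed most among these genes between NASH-T and the other libraries. Its level was 313 CPM in NASH-T (304 to 322), 140 CPM in NASH (135 to 146) and 177 CPM in Con (170 to 184). The ratio was 1.77 in NASH-T against Con (1.69 to 1.86) and 2.23 in NASH-T against NASH (2.13 to 2.34), both called. In NASH against Con it was 0.795 (0.753 to 0.838), which was not called. That last ratio depended on which hepatocytes a library holds: over the clusters that every library fills it was 1.05. Within clusters 0, 1, 2 and 9 taken singly it was 0.459, 0.722, 0.859 and 0.622, called lower in clusters 0 and 9.

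The PDK4 UMIs were unevenly spread over cells. Hepatocyte-like cells with at least 3 PDK4 UMIs numbered 570 of 3119 in NASH-T, 311 of 4061 in NASH and 260 of 2862 in Con. These cells held 77.8% of the PDK4 UMIs of the class in NASH-T, 54.4% in NASH and 66.5% in Con, and single cells reached 42, 20 and 35 UMIs. After every cell was thinned to 1000 UMIs, the share of hepatocyte-like cells with a PDK4 UMI was 21.5% in NASH-T (20.1 to 23.1%), 11.7% in NASH (10.7 to 12.8%) and 12.47% in Con (11.3 to 13.8%). The unthinned shares were 44.1%, 31.6% and 32.2%. In T or NK-like cells, which have a median of 1233, 1051 and 1210 UMIs, the thinned share was 1.06%, 0.803% and 0.416%. The higher level in NASH-T thus went with more hepatocyte-like cells showing the transcript as well as with more UMIs in the highest cells.

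FGF21 gave few UMIs and had its highest level in NASH. The 448 UMIs of NASH-T made 29.5 CPM (26.8 to 32.3), the 964 of NASH made 48.6 CPM (45.6 to 51.8) and the 333 of Con made 23.2 CPM (20.8 to 25.9). The NASH level was 2.09-fold that of Con (1.84 to 2.38), and the NASH-T level was 0.606-fold that of NASH (0.541 to 0.679), both called. NASH-T against Con had a ratio of 1.27 (1.098 to 1.47), above 1 beyond counting error but not called. Where only the clusters that every library fills were used, leaving out cluster 4, the NASH against Con ratio was 1.76 and the NASH-T against NASH ratio was 0.721, which was no longer called.

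FGF21 transcripts were found in few hepatocyte-like cells. After thinning, 3.12% of them had a UMI in NASH-T (2.52 to 3.81%), 4.80% in NASH (4.15 to 5.52%) and 2.68% in Con (2.10 to 3.36%). The unthinned shares were 10.8%, 17.4% and 8.94%. In T or NK-like cells, which are not known to make the hormone, the thinned share was 0.437%, 1.03% and 0.333%. In every library the hepatocyte-like share lay above it, with intervals that did not overlap.

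The liver lobule runs from the portal vein, where urea and histidine enzymes are high, to the central vein, where Wnt targets are high. The hepatocyte-like cells of each library were ranked by a score of pericentral genes (LGR5, FMO1, CYP2E1 and others) minus periportal genes (HAL, GLS2, CPS1 and others), none of them among the 5 genes, and cut into 3 groups of near-equal size. SLC1A2, also scored as pericentral and named after its value was seen, ran the other way. Its ratio of pericentral to periportal group was 0.855 in NASH-T, 0.837 in NASH and 0.942 in Con. GLUL and OAT of the pericentral list were not among the scored genes. Between 24.7% and 26.5% of a library's cells lay within 0.1 score units of a boundary, so the groups are ranges of a gradient and not cell types. The boundaries were set within each library, at -0.246 and 0.230 in NASH-T, -0.312 and 0.191 in NASH, and -0.150 and 0.320 in Con. Groups of the same name thus cover different score ranges, and a ratio between libraries within a group also weighs that difference. Of all genes, the pericentral group was called higher for 4.76% in NASH-T, 5.64% in NASH and 4.36% in Con, and lower for 6.07%, 6.0% and 5.98%. Of the 5 genes, 1 was called higher and 1 lower in NASH-T, 0 and 1 in NASH, and 1 and 2 in Con.

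PDK4 was a periportal transcript in every library. In the pericentral, middle and periportal groups it stood at 142, 253 and 520 CPM in NASH-T, at 72.3, 120 and 218 CPM in NASH and at 87.1, 141 and 288 CPM in Con. The pericentral to periportal ratio was 0.274 in NASH-T (0.251 to 0.298), 0.332 in NASH (0.298 to 0.369) and 0.303 in Con (0.270 to 0.339). The level therefore stepped down towards the central vein in each library. The size of the step depended on the genes that ranked the cells: with the pericentral genes alone the ratio was 0.313 in NASH-T, 0.396 in NASH and 0.532 in Con, and with the periportal genes alone it was 0.434 in NASH-T and 0.514 in NASH. The NASH-T excess over Con was present in all 3 groups, whose boundaries differ between the libraries. NASH-T against Con gave 1.64 in the pericentral group (1.44 to 1.86), 1.79 in the middle (1.63 to 1.97) and 1.81 in the periportal group (1.70 to 1.93), and all 3 were called.

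FGF21 ran the other way in NASH-T and Con and had no slope between the ends of the gradient in NASH. Its level was 40.9, 30.05 and 19.0 CPM in the pericentral, middle and periportal groups of NASH-T, 46.5, 56.3 and 43.0 CPM in NASH, and 33.2, 20.7 and 16.8 CPM in Con. The pericentral to periportal ratio was 2.15 in NASH-T (1.69 to 2.77) and 1.98 in Con (1.51 to 2.61), both called, and 1.08 in NASH (0.915 to 1.28). When cells were thinned to 1000 UMIs before they were scored, the ratio was 1.46 in NASH-T, 0.818 in NASH and 1.09 in Con, so that the calls in NASH-T and Con were lost.

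The FGF21 difference between NASH and Con was larger away from the central vein. NASH against Con was 1.40 in the pericentral group (1.14 to 1.72), 2.73 in the middle (2.18 to 3.44) and 2.56 in the periportal group (2.01 to 3.29), of which the last 2 were called. NASH-T against NASH was 0.878 in the pericentral group (0.727 to 1.06), 0.534 in the middle (0.440 to 0.645) and 0.441 in the periportal group (0.349 to 0.554). The pericentral interval did not overlap the other two in either comparison, which covers counting error only and is not a test between goats. These zone values use the unthinned ranking, and after thinning the slope of FGF21 differed less between NASH (0.818) and Con (1.09) than before it (1.08 and 1.98).

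HADHA and HADHB sloped mildly towards the portal side. The pericentral to periportal ratio of HADHA was 0.730 in NASH-T, 0.773 in NASH and 0.763 in Con, and that of HADHB was 0.766, 0.760 and 0.619, of which the HADHB ratio in Con was called (0.518 to 0.738) but stood at 0.717 with the pericentral genes alone and 0.767 with the periportal genes alone, where it was not. CPT1A was nearly level, at 0.941 in NASH-T (0.859 to 1.03), 0.923 in NASH (0.844 to 1.01) and 0.859 in Con (0.775 to 0.951). After thinning to 1000 UMIs, HADHA had a ratio of 1.03 in Con and HADHB had a ratio of 1.03 in NASH, so the slope of these subunits was not detectable in every library at that depth. The slope of PDK4 was still called after thinning, at 0.332, 0.387 and 0.368.

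**Figure D2:**
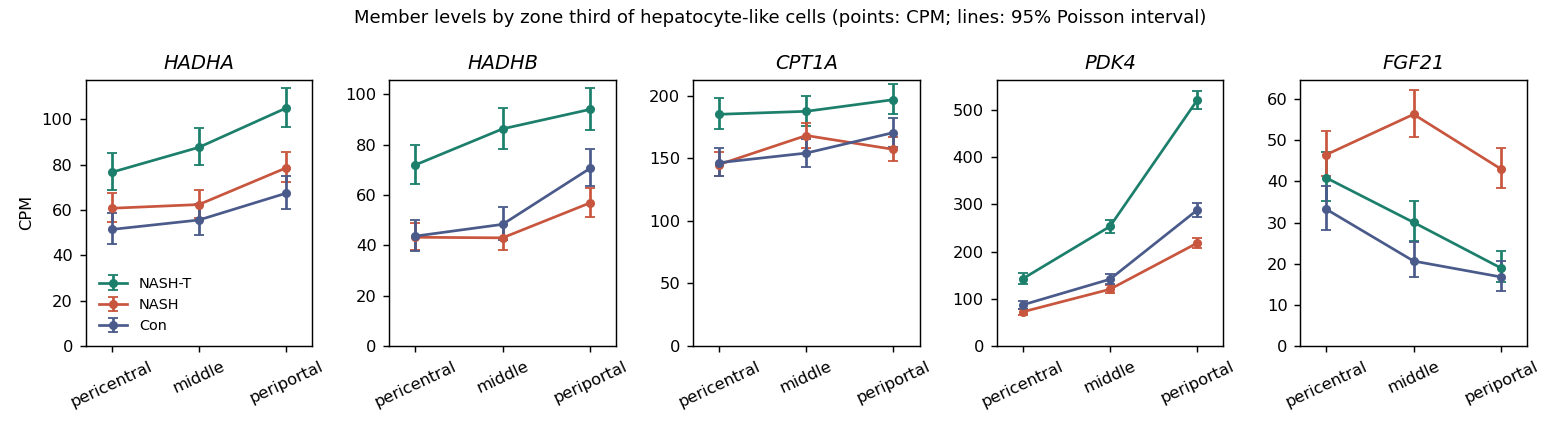
Levels of the 5 genes along the lobule. Points give CPM in the pericentral, middle and periportal group of hepatocyte-like cells of each library and lines the exact 95% Poisson interval; PDK4 climbs to the periportal end in all 3 libraries (520 CPM in NASH-T), and FGF21 in NASH stays between 43.0 and 56.3 CPM.

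The hepatocyte-like clusters split the same cells in another way, with the reservation that PDK4 was among the variable genes that built the clusters and the other 4 were not. In cluster 2, led by UPP2, HAL, HSD17B13 and FASN and with 68.6 to 78.8% of its cells in the periportal group, PDK4 stood at 653 CPM in NASH-T, 243 CPM in NASH and 283 CPM in Con. In cluster 0 it stood at 327, 109 and 238 CPM, and in cluster 1, led by NKD1, LGR5 and FMO1, at 79.2, 42.0 and 58.2 CPM. NASH-T was the highest library in each of the 3. The NASH-T against Con ratio was 2.31 in cluster 2 (2.09 to 2.55), which was called, and 1.37 in cluster 0 (1.29 to 1.46) and 1.36 in cluster 1 (1.14 to 1.62), which were not. In the shallow cluster 9 that ratio was 1.11 (0.921 to 1.35), within counting error. In cluster 4 NASH-T against NASH was 0.799 (0.445 to 1.33), on 15 UMIs in NASH-T. Cluster 1, with the lowest PDK4 level of clusters 0, 1 and 2, held 598 of 3119 hepatocyte-like cells in NASH-T and 960 of 2862 in Con. The whole-class ratio of NASH-T against Con therefore also weighs which hepatocytes each library holds.

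The subunits HADHA and HADHB were also highest in NASH-T in each of clusters 0, 1 and 2, by unequal factors. NASH-T against Con was 1.65 for HADHA (1.46 to 1.87) and 1.67 for HADHB (1.47 to 1.89) in cluster 0, both called. In cluster 1 it was 1.33 (1.101 to 1.61) and 1.38 (1.13 to 1.68), and in cluster 2 it was 1.35 (1.08 to 1.70) and 1.14 (0.911 to 1.44), none of them called. In the shallow cluster 9 it was 1.43 (1.07 to 1.90) and 1.58 (1.18 to 2.13), the second called. In cluster 4 NASH-T against NASH was 0.671 for HADHA (0.320 to 1.24) and 1.17 for HADHB (0.577 to 2.11). These rest on 10 and 11 UMIs in NASH-T.

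FGF21 in cluster 2 stood at 11.2 CPM in NASH-T, 48.6 CPM in NASH and 15.5 CPM in Con, so that NASH was 3.14-fold Con (2.13 to 4.80) and NASH-T was 0.231-fold NASH (0.151 to 0.340). In cluster 4 the NASH level was 58.6 CPM, and its 1746 of 4061 cells gave 510 of the 964 UMIs of that library. In cluster 0, by contrast, FGF21 was 28.5 CPM in NASH-T, 22.7 CPM in NASH and 20.7 CPM in Con, and NASH against Con was 1.098 (0.804 to 1.49). In cluster 1 it was 41.6, 34.8 and 28.5 CPM, and NASH against Con was 1.22 (0.788 to 1.84). The NASH level was thus above Con beyond counting error in cluster 2 and in the shallow cluster 9 (1.77, 1.03 to 2.97), and not in clusters 0 and 1. Cluster 4 allows no such comparison, since Con has 11 cells and 1 FGF21 UMI there.

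**Figure D3:**
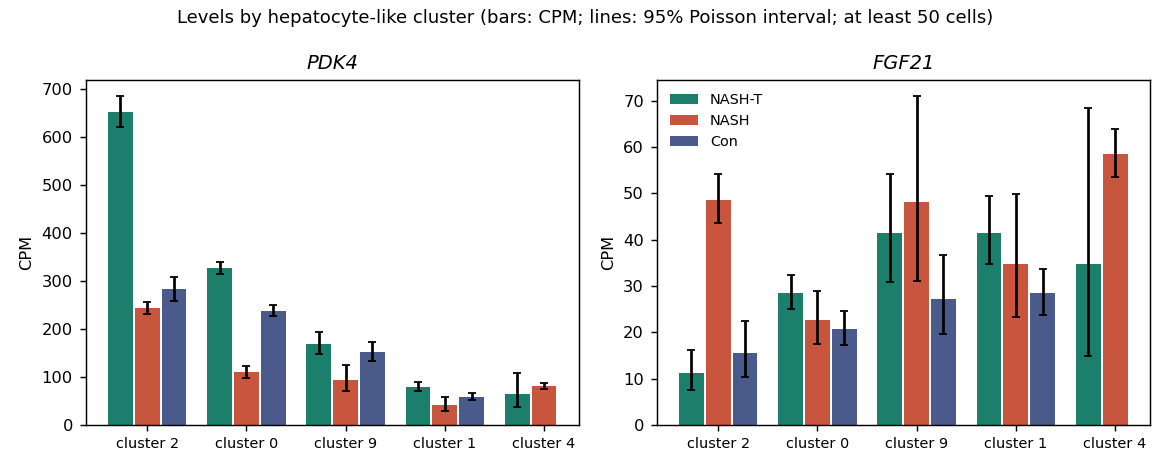
PDK4 and FGF21 by hepatocyte-like cluster. Bars give CPM per library and lines the exact 95% Poisson interval, for clusters with at least 50 cells in that library; PDK4 is tallest in NASH-T of cluster 2 (653 CPM), where FGF21 is 11.2 CPM in NASH-T, 48.6 CPM in NASH and 15.5 CPM in Con.

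Outside hepatocytes, the 5 genes fell into different patterns. Dissociated liver sheds hepatocyte RNA that is captured with other cells, so each level is set beside that of 14 secreted hepatocyte proteins (albumin, apolipoproteins, fibrinogen and others), whose median level in another class was between 23.1% and 45.2% of their level in hepatocyte-like cells of the same library. Their individual shares spread widely, from 2.02% to 170%, and the part of such RNA in the values below was not tested. A level per class is an average over its cells. The levels below were not split into the share of expressing cells and the RNA per cell.

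HADHA and HADHB were found at similar levels in most of the 6 classes with at least 50 cells in every library. In T or NK-like cells HADHA stood at 72.0 CPM in NASH-T, 69.3 CPM in NASH and 76.4 CPM in Con, and in macrophage-like cells at 60.0, 59.1 and 61.3 CPM. HADHB stood at 48.0, 50.3 and 56.3 CPM in T or NK-like cells and at 41.6, 46.5 and 44.7 CPM in macrophage-like cells. These levels hardly differed between libraries: NASH-T against Con was 0.942 (0.773 to 1.15) for HADHA and 0.853 (0.673 to 1.08) for HADHB in T or NK-like cells. The higher NASH-T level of both subunits in hepatocyte-like cells had no counterpart there. B-like cells held few UMIs, and HADHA in them stood at 27.4 CPM in NASH-T on 8 UMIs, against 82.6 CPM in Con on 17 UMIs. In the smaller class of cholangiocyte-like cells HADHA stood at 127, 95.6 and 125 CPM in NASH-T, NASH and Con, on 18, 11 and 32 UMIs. HADHB stood there at 85.0, 104 and 136 CPM, on 12, 12 and 35 UMIs. In Con the intervals of HADHA (85.2 to 176) and HADHB (94.9 to 189) lay above those of hepatocyte-like cells. Among the 6 classes with at least 50 cells in every library, CPT1A was highest in hepatocyte-like cells and next highest in macrophage-like cells, at 81.7 CPM in NASH-T, 64.7 CPM in NASH and 67.8 CPM in Con. In the smaller class of dividing-like cells it stood at 147 CPM in NASH-T, 129 CPM in NASH and 165 CPM in Con, on 19, 22 and 43 UMIs.

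PDK4 was also high in endothelial and stromal cells. Endothelial-like cells held 163 CPM in NASH-T (146 to 182), 101 CPM in NASH (82.0 to 123) and 223 CPM in Con (190 to 260). Stellate, fibroblast or muscle-like cells held 193 CPM in NASH-T (163 to 226), 108 CPM in NASH (86.6 to 133) and 232 CPM in Con (194 to 275). In Con both classes lay above the 177 CPM of hepatocyte-like cells, with intervals that did not overlap, while in NASH-T and NASH they lay below the hepatocyte-like cells of the same library. Cholangiocyte-like cells, a smaller class, held 120 CPM in NASH-T (70.1 to 193), 34.8 CPM in NASH (9.47 to 89.0) and 187 CPM in Con (138 to 248). T or NK-like cells held only 14.0, 7.94 and 9.24 CPM, which is 4.46 to 5.66% of the hepatocyte-like level. In macrophage-like cells NASH-T against Con was 0.638.

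In endothelial-like and in stellate, fibroblast or muscle-like cells PDK4 was lowest in NASH. NASH against Con was 0.453 in endothelial-like cells (0.348 to 0.586) and 0.465 in stellate, fibroblast or muscle-like cells, and both were called lower. Of all genes, 6.46% were called lower and 3.78% higher in that comparison in endothelial-like cells, and 5.0% lower and 7.39% higher in the stellate, fibroblast or muscle-like cells. NASH-T against NASH was 1.61 (1.28 to 2.04) and 1.78, both called higher, beside 4.86% of genes higher and 3.96% lower in endothelial-like cells and 4.3% higher and 7.04% lower in stellate, fibroblast or muscle-like cells. NASH-T against Con was 0.729 in endothelial-like cells (0.602 to 0.886) and 0.830 in stellate, fibroblast or muscle-like cells (0.651 to 1.06), neither called, where the hepatocyte-like cells gave 1.77. In endothelial cluster 6 alone, which has the most PDK4 UMIs, NASH against Con was 0.491 (0.372 to 0.646).

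The stromal class held PDK4 unevenly. Cluster 19, led by EPHA3, C7 and LAMA2 and with DCN and ACTA2 among its leading genes, had 678 CPM in NASH-T, 404 CPM in NASH and 479 CPM in Con, from 62, 58 and 75 cells. Cluster 22, led by RELN, HHIP and HGF, had 103 CPM in NASH-T, 61.1 CPM in NASH and 153 CPM in Con. The first cluster thus exceeded the hepatocyte-like level of its own library in all 3 libraries. NASH against Con was 0.399 in cluster 22 (0.265 to 0.595) and 0.843 in cluster 19 (0.564 to 1.25), so the lower NASH level was beyond counting error in cluster 22 and not in cluster 19. NASH-T against Con was 0.669 in cluster 22 (0.468 to 0.956) and 1.42 in cluster 19 (1.01 to 1.99). The cluster 19 values rest on 81, 45 and 66 PDK4 UMIs in NASH-T, NASH and Con. Single cells of the stromal class reached 20, 6 and 12 PDK4 UMIs, a spread over cells that the intervals do not cover.

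FGF21 was low outside hepatocytes. Its level in T or NK-like, endothelial-like and macrophage-like cells was 2.01 to 3.52 CPM in NASH-T, 4.95 to 13.6 CPM in NASH and 0.745 to 3.36 CPM in Con, on at most 19 UMIs in a class. In those classes this was 3.205 to 27.9% of the hepatocyte-like level, below the median share of the secreted proteins in each case. NASH was the highest library in each of the 3 classes, as it was in hepatocyte-like cells. NASH against Con was 2.99 in T or NK-like cells (1.25 to 7.90), 4.92 in endothelial-like cells (1.11 to 44.9) and 6.65 in macrophage-like cells (1.90 to 35.6), with 8, 2 and 3 UMIs in Con, and the part of shed hepatocyte RNA in these values was not tested. In stellate, fibroblast or muscle-like cells its share reached 37.8% in Con, on 5 UMIs, where the secreted proteins had a median of 30.6% and a highest value of 77.5%.

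**Figure D4:**
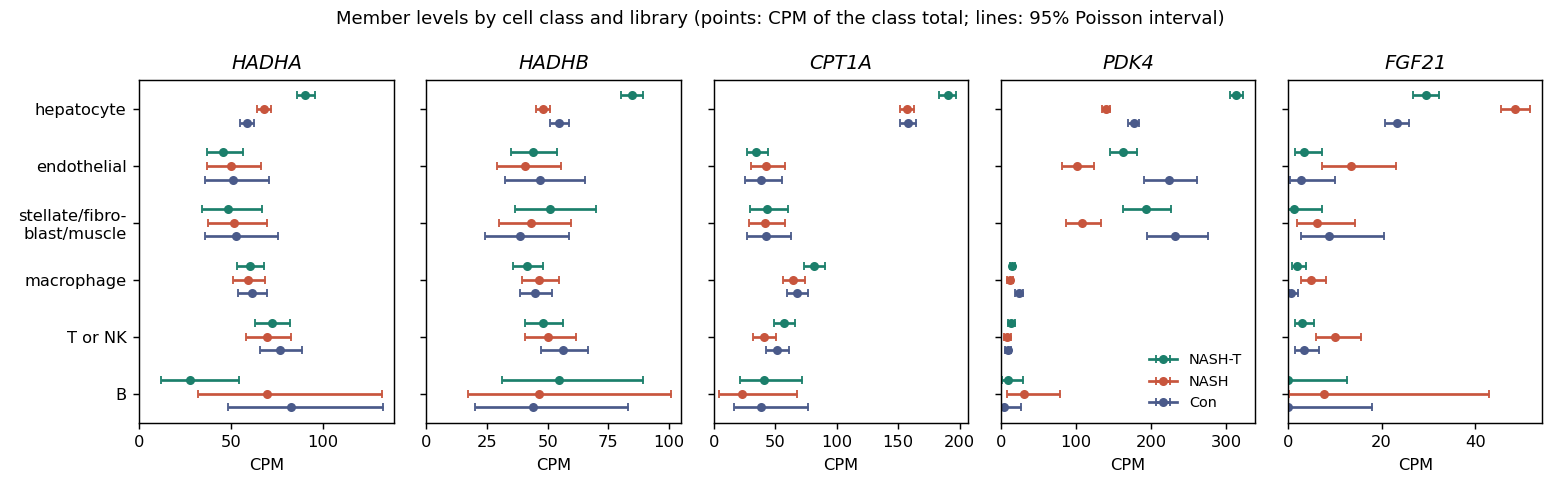
Levels of the 5 genes by cell class. Points give CPM of the class total in each library and lines the exact 95% Poisson interval. PDK4 is high in hepatocyte, endothelial and stellate, fibroblast or muscle-like cells (232 CPM in Con) and low in T or NK-like cells (at most 14.0 CPM). HADHA and HADHB lie at similar levels in most of the classes shown.

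The genes around these steps were read in hepatocyte-like cells from lists of pathway names, with the same rule for a call. These counts are small, and of 60 counts (10 lists, 3 comparisons, 2 directions) 13 changed by over 1.5 times after thinning to 1000 UMIs, 9 over the clusters that every library fills and 3 with size factors. The list counts stand beside the share of all genes called in hepatocyte-like cells. That share was 4.63% higher and 8.04% lower in NASH-T against Con, and 5.25% and 11.4% in NASH against Con. In NASH-T against NASH it was 8.09% and 4.9%. Fatty acid activation and the carnitine shuttle had 12 measured genes, of which 2 were called higher and 0 lower in NASH-T against Con, 2 and 0 in NASH against Con, and 2 and 1 in NASH-T against NASH. ACSL5, which activates long-chain fatty acids to acyl-CoA, stood at 221 CPM in NASH-T, 350 CPM in NASH and 113 CPM in Con, a ratio of 1.95 in NASH-T against Con and 3.08 in NASH against Con. ACSL1, another acyl-CoA synthetase, was called at 1.51 in NASH against Con. SLC22A5, the plasma membrane carnitine transporter, was called in NASH-T against Con (ratio interval 1.34 to 1.68) and at 1.51 in NASH-T against NASH, just inside the threshold. ACSL4 was called at 1.73 in NASH-T against NASH on 61 and 46 UMIs.

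Of the 17 measured enzymes of mitochondrial beta-oxidation, HADHA and HADHB were the 2 called higher in NASH-T against Con, and none was called lower. The median log2 ratio of the list was -0.04, against -0.10 for all genes. In NASH against Con 0 were called higher and 1 lower. That gene was ECI1, an enoyl-CoA isomerase for unsaturated fatty acids, at 28.1 CPM in NASH-T, 20.6 CPM in NASH and 38.8 CPM in Con, a ratio of 0.532 in NASH against Con. In NASH-T against NASH the 1 gene called was HADHB. The acyl-CoA dehydrogenases, electron-transferring flavoprotein subunits and the other isomerase were therefore not called in any comparison.

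Malonyl-CoA, the inhibitor of CPT1A, is made by acetyl-CoA carboxylases. ACACA, which makes it for fatty acid synthesis, stood at 362 CPM in NASH-T, 712 CPM in NASH and 201 CPM in Con, and was the 1 of 3 measured genes of malonyl-CoA control that was called, at 1.80 in NASH-T against Con, 3.54 in NASH against Con and 0.509 in NASH-T against NASH. The other carboxylase, ACACB, named after its value was seen, stood at 226 CPM in NASH-T, 222 CPM in NASH and 214 CPM in Con. Of 14 measured genes of peroxisomal oxidation, HSD17B4, the peroxisomal bifunctional enzyme, was called in NASH-T against Con at 1.54, and 0 were called lower there. HSD17B4 stood at 1044 CPM in NASH-T, 990 CPM in NASH and 680 CPM in Con. NASH against Con was 1.46 for it (1.42 to 1.49), just short of a call, and NASH-T against NASH was 1.05.

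**Figure D5:**
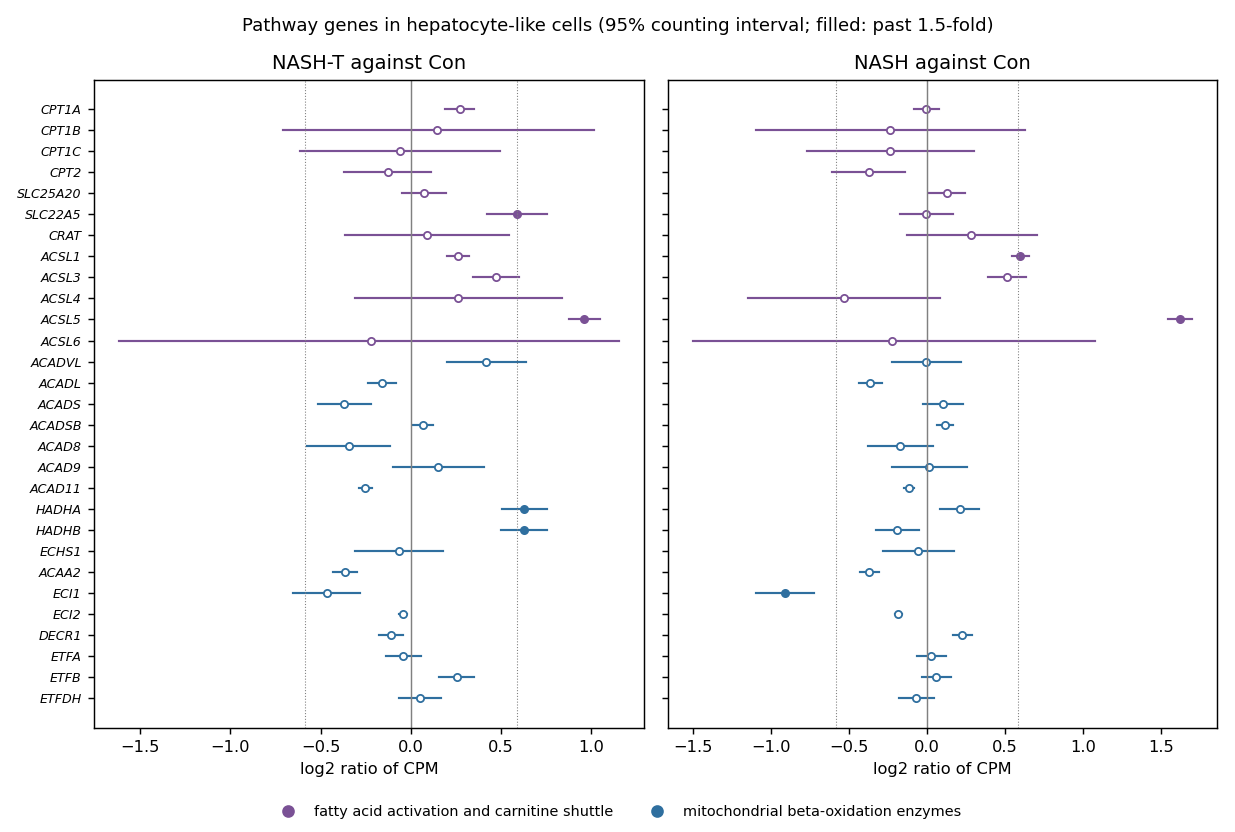
Genes of fatty acid activation and the carnitine shuttle and of mitochondrial beta-oxidation in hepatocyte-like cells. Points give the log2 ratio of CPM, lines the 95% counting interval, filled points are called and dotted lines mark 1.5-fold; HADHA and HADHB are the only filled beta-oxidation points in NASH-T against Con, and ACSL5 has the largest ratio in NASH against Con (3.08).

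The pyruvate dehydrogenase axis had 8 measured genes, and PDK4 was the 1 called in NASH-T against Con. MPC1, a subunit of the mitochondrial pyruvate carrier, stood at 80.2 CPM in NASH-T, 42.6 CPM in NASH and 73.6 CPM in Con. It was called lower in NASH against Con at 0.579 and higher in NASH-T against NASH at 1.88, where PDK4 was the other gene called. Among the PPAR regulators and targets, 3 of 17 measured genes were called higher and 1 lower in NASH-T against Con. PLIN2, a lipid droplet coat protein, stood at 29.4 CPM in NASH-T, 12.2 CPM in NASH and 7.61 CPM in Con, 3.87-fold in NASH-T against Con. VNN1, a pantetheinase, was called at 2.33 and FABP1, the liver fatty acid binding protein, at 1.69 in that comparison, and LPIN1, a phosphatidate phosphatase that also acts as a coactivator, was called lower at 0.564. FABP1 was higher in NASH, at 3.96-fold Con, and was called lower in NASH-T against NASH at 0.427. ANGPTL4, an inhibitor of lipoprotein lipase, was called lower at 0.263 in NASH against Con on 8 and 22 UMIs. Of this list 2 of 16 measured genes were called higher and 1 lower in NASH against Con. In NASH-T against NASH 2 of 17 were called higher and 2 lower. The receptor PPARA, named after its value was seen, stood at 527 CPM in NASH-T, 602 CPM in NASH and 722 CPM in Con. It was not called in any comparison.

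The list of FGF21 receptors and regulators had 13 measured genes in NASH-T against Con, of which 2 were called higher and 0 lower. FGFR2, an FGF receptor, stood at 158 CPM in NASH-T, 116 CPM in NASH and 85.2 CPM in Con, and ATF3, a stress-induced transcription factor, at 10.6, 7.26 and 6.63 CPM. ATF4, DDIT3 and TRIB3 of the same list, named after their values were seen, were not called in any comparison. The co-receptor KLB stood at 39.1 CPM in NASH-T, 67.6 CPM in NASH and 51.9 CPM in Con and was called lower in NASH-T against NASH at 0.578, as was FGF21 itself. Of 12 measured genes of the integrated stress response, 4 were called higher and 0 lower in NASH-T against Con, and 4 higher and 1 lower in NASH against Con. The median log2 ratio of that list was 0.44 in both comparisons, against -0.10 and -0.12 for all genes. PSAT1 of serine synthesis was called in both, at 2.13 and 2.51, as were PSPH, its pathway partner, at 2.38 and 1.74, and SHMT2, at 1.94 and 2.37. SLC7A11, the cystine transporter, was called at 2.82 in NASH-T against Con, and ALDH1L2, a mitochondrial folate enzyme, was called at 1.70 in NASH against Con. The 1 gene called lower there was SLC7A11 at 0.657, which is named after its value was seen. In NASH-T against NASH 1 gene of the stress response list was called higher and 0 lower. Its median log2 ratio was -0.22 there, against 0.004 for all genes.

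PDK4 is a known target of glucocorticoid and FOXO signalling in several mammals, and a list of such fasting targets was read for that reason. Whether either signal bears on the PDK4 levels here was not tested. Of the 13 measured genes of this list 0 were called higher and 3 lower in NASH-T against Con, and PDK4 is not on that list. The list had a median log2 ratio of -0.29 in that comparison, against -0.10 for all genes. In NASH against Con 1 was called higher and 1 lower. FKBP5, a glucocorticoid-induced co-chaperone, stood at 20.7 CPM in NASH-T, 19.4 CPM in NASH and 51.6 CPM in Con. PER1, a clock gene, was called lower at 0.527 and TXNIP, an inhibitor of thioredoxin, at 0.563 in NASH-T against Con, whereas TXNIP was called higher at 1.52 in NASH against Con.

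The genes whose levels ran most like each member were sought over the 9 columns of 3 zone groups by 3 libraries, among 7840 genes. The columns share libraries, so these correlations describe 3 pools only. PDK4 ran most like CPS1, the first urea cycle enzyme (Pearson r = 0.991), which had been used to rank the cells by zone, followed by GPM6A, BTG2, TLCD4 and WASL. HADHA ran most like CXADR (r = 0.970), MAP7, PPP2R2A, PROX1 and MYCBP2, and HADHB most like WSB1 (r = 0.976), GC, PARVA, DHRS7 and DUSP1. CPT1A ran most like RCL1 (r = 0.957), ATL2, PRKAR2A, EPSTI1 and FOS, and FGF21 most like SNAPC3 (r = 0.954), NLK, ALCAM, NFATC4 and KIAA0232. No gene was among the 5 nearest of more than 1 member.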

How the data were processed

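UMI counts per gene and barcode, made with Cell Ranger 7.0.0 per the submitters' processing notes, were the values the authors deposited for each library; their genome build, annotation and treatment of intronic reads were not given in the sources used here. Limits of 200 genes, 500 UMIs and 20% mitochondrial UMIs removed 2, 0 and 1 barcodes in NASH-T, NASH and Con. Scrublet (expected rate 0.06) removed 459, 342 and 284 doublets. The kept cells hold 27005297, 29059323 and 23752171 UMIs, which set the precision. With scanpy 1.11.5, 2000 variable genes, 30 components, 15 neighbours and Leiden clustering (resolution 0.8) gave 25 clusters, named from markers and therefore called "-like". UMIs were summed per library and class. CPM carry exact Poisson intervals, ratios exact conditional binomial intervals and shares exact Clopper-Pearson intervals. Only the ratios, with their intervals and calls, were tested on simulated Poisson counts, which leave out the uneven spread of UMIs over cells. PCR duplicates are collapsed by UMIs, and intervals cover counting error only. With 1 pooled library per group no p-value was computed. Genes named from the lists were up to 4 called genes per list and comparison with the largest ratio, and for each member the 5 genes of highest correlation with at least 200 UMIs. List genes added outside this rule are marked as named after their values were seen. The members and lists were chosen with earlier results of these data known, so nothing here is independent support for them. The ketogenesis list is not reported here. Alternatives varied scaling, filters, clusters, zone scores and depth.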

Additional observations from a re-analysis of the deposited data

Results flagged for a closer look

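HADHA and PDK4 in NASH-T against Con ran in opposite directions in different cell classes. HADHA was 1.54-fold in hepatocyte-like cells and 0.332-fold in B-like cells, the second on 8 UMIs in NASH-T and 17 UMIs in Con. PDK4 was 1.77-fold in hepatocyte-like cells and 0.638-fold in macrophage-like cells, the second on 68 UMIs in NASH-T and 96 UMIs in Con. With 1 library per group, the difference between the classes was not tested.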

How the results depend on the processing

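No paired analysis was possible because each group is 1 pooled library and no value comes from a test. Among ratios between libraries, HADHA, HADHB and PDK4 kept their calls and no called ratio changed direction under any alternative run. Median-of-ratios size factors shifted log2 ratios by 0.11 in NASH-T against Con and 0.11 in NASH against Con, and gave CPT1A 1.30 and PDK4 1.91 in NASH-T against Con, CPT1A 1.08 and PDK4 0.860 in NASH against Con, and 705 genes called lower in NASH-T against Con, against 1058 by CPM. Equal weight of common zone ranges gave PDK4 1.66 in NASH-T against Con and 0.718 in NASH against Con. Clusters filled by every library gave HADHB 0.975, PDK4 1.05 and FGF21 1.76 in NASH against Con, and HADHB 1.59, PDK4 1.70 and FGF21 0.721 in NASH-T against NASH; the cause was not tested. Thinning to 1000 UMIs gave CPT1A 1.07 and PDK4 0.844 in NASH against Con, CPT1A 1.14 in NASH-T against NASH, 624 genes lower in NASH-T against Con, 845 lower in NASH against Con and 679 higher in NASH-T against NASH. The pericentral to periportal ratio after thinning was, in NASH-T, 0.884 for HADHA, 0.639 for HADHB, 1.14 for CPT1A, 0.332 for PDK4 and 1.46 for FGF21. In NASH it was 1.03 for HADHB, 1.04 for CPT1A, 0.387 for PDK4 and 0.818 for FGF21, and in Con 1.03 for HADHA, 0.993 for CPT1A, 0.368 for PDK4 and 1.09 for FGF21. With the pericentral genes alone it was 0.890 for HADHB, 1.06 for CPT1A and 0.313 for PDK4 in NASH-T, 0.396 for PDK4 in NASH, and 0.992 for CPT1A and 0.532 for PDK4 in Con. With the periportal genes alone it was 0.853 for CPT1A and 0.434 for PDK4 in NASH-T, 0.514 for PDK4 in NASH and 0.767 for HADHB in Con. All 15 member ratios between libraries moved by less than counting error with doublets kept, with deeper cells and, chosen after seeing the data, without the shallow cluster 9.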
